A study of Caenorhabditis elegans with 18 samples.

Results

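Small RNA of early Caenorhabditis elegans embryos was compared between 3 libraries labelled met-2;nrde-3 and 3 libraries of the wild type N2 (Bristol), 6 of the 18 libraries in the study. The label met-2;nrde-3 stands for worms that carry met-2(n4256) on chromosome III together with nrde-3(tm1116) on chromosome X, and N2 carries neither allele. The other 12 libraries came from nrde-3(tm1116), met-2(n4256), set-25(n5021) and the pair set-25(n5021);nrde-3(tm1116), with 3 of each, and were used here as points of reference. Worms had grown for 60 to 65 h, depending on the strain, since synchronisation as L1 larvae. All embryos were collected before the bean stage, and no treatment of the worms is named. A library holds RNA of many embryos and of all their cells, so fewer cells that make a small RNA and fewer copies in each cell cannot be told apart. Reads had been counted in bins of 20 bp on both strands together, and the bins were summed to windows of 1 kb. The regions covered are all of chromosome I and the first 5.9 Mb of chromosome II in build ce10, and they hold 20973 windows. A window is named below by its chromosome and its first base, so that I 14855020 runs from base 14855020 to base 14856019. The annotation at hand is of another build, so gene names, small RNA classes and sequences were not used here. The 3 mutated genes lie outside the regions covered, and their own reads could not check the genotypes.

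NRDE-3 is an Argonaute protein of somatic cells. It binds secondary small interfering RNAs, which RNA-dependent RNA polymerases copy from target transcripts, and carries them into the nucleus, where they direct silencing of the matching loci. MET-2, a relative of mammalian SETDB1, places the first methyl groups on lysine 9 of histone H3, and SET-25 completes trimethylation. Methylation of that residue marks repeats and silent genes, which are dense on the arms of the worm's autosomes. The counts join both strands and all small RNA classes. A window with more or fewer reads thus holds more or less small RNA of any class, relative to the rest of its library. The study concerns how the trimethylating enzyme is brought to its targets in somatic cells, and the double mutant asks which small RNAs change when MET-2 and NRDE-3 are both absent.

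Replicates 1 and 2 of the libraries labelled met-2;nrde-3 stood apart from the other 16 libraries. They held 1680028 and 2694426 reads in the regions covered, replicate 3 held 2539942, and the N2 libraries held 2829783, 4384593 and 4147419. With every library thinned to 1680028 reads, reads were found in 5.76% and 6.64% of bins in replicates 1 and 2 and in 12.3% in replicate 3. In N2 that share was 12.3%, 12.3% and 11.5%, and in the other groups it was 8.19% to 10.9%. Among bins with reads, 16.8% and 15.7% held a single read in replicates 1 and 2, against 34.7% in replicate 3 and 29.9% to 39.8% in the other 15 libraries. The 2 libraries thus held their reads in fewer places and more to a place, while replicate 3 lay beside N2 on this measure. As groups, the labelled double mutant and N2 overlapped at equal depth (exact two-sided permutation p = 0.4, where 3 against 3 cannot go below 0.1). Window levels spread more among these 3 libraries than in any other group. The median SD of log2(CPM + 1) over 10730 windows was 0.47 for them, 0.21 for N2 and 0.23 to 0.29 for the other groups. Windows described below are therefore given by library, or with replicate 3 beside the mean.

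**Figure D1:**
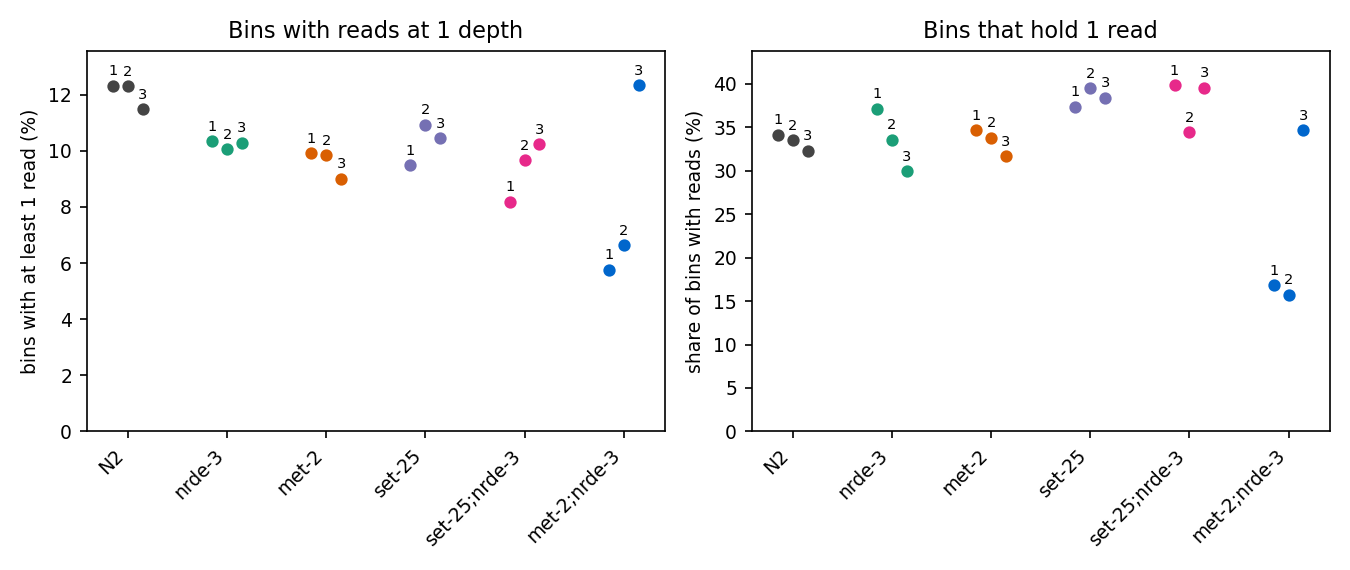
Bins with at least 1 read after thinning every library to the same number of reads (left, percent of all bins), and the share of bins with reads that hold 1 read (right, percent). Each point is 1 library and carries its replicate number. Replicates 1 and 2 of met-2;nrde-3 lie at 5.76% and 6.64% on the left and at 16.8% and 15.7% on the right, below every other library.

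The libraries labelled met-2;nrde-3 were less reduced than the nrde-3 and met-2 libraries at windows that lost reads in other worms without nrde-3. A list of 141 windows was taken from libraries outside the comparison, as those that the set-25;nrde-3 libraries held at least 2-fold below set-25 (1.63% of 8631 tested). The measure is the median log2 level over N2 in the list minus the same median over all other windows. It was -0.49, -0.67 and -0.37 in the 3 nrde-3 libraries and -1.14, -1.32 and -1.18 in the 3 met-2 libraries. In the libraries labelled met-2;nrde-3 it was only -0.10, -0.32 and -0.28, and in N2 it lay between -0.05 and 0.06. So these libraries lay below N2, but above each library of both single mutants whose alleles they are said to carry. The exact two-sided permutation p was 0.1 against N2 and 0.1 against nrde-3, the smallest that 3 against 3 allows. Of 133 windows of the list that were tested against N2, 16 were lower and 2 higher, where 1.05% and 1.23% of all windows tested were, with a median log2 change of -0.31 beside -0.01 over all windows tested. For that reason these libraries are called the labelled double mutant from here on, and every direction below is that of libraries with this label.

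Of the 3 windows of the list named by rule, the pair on chromosome II had this order and the one on chromosome I did not. At II 311017 the level was 822 ± 107 CPM in N2, the normalised read count on TMM library sizes (mean ± SD, n = 3 here and below). It was 84.8 ± 51.2 in nrde-3 and 18.3 ± 2.90 in met-2, but 505, 320 and 416 in replicates 1, 2 and 3 of the labelled double mutant. The labelled double mutant lay below every N2 library there (log2 fold change -0.99 ± 0.16 SE, edgeR adjusted p = 0.00805), and far above nrde-3 and met-2. At II 2996017 the level was 376 ± 26.7 in N2, 31.0 ± 20.7 in nrde-3 and 10.2 ± 2.28 in met-2, and 322, 213 and 228 in the labelled double mutant (adjusted p = 0.0883). At I 4684001, where one bin holds 98.2% of the N2 reads, N2 varied from 48.9 to 101 and the labelled double mutant held 41.3, 39.6 and 40.0 (adjusted p = 0.148). There met-2 lay above N2 at 91.6 ± 7.81, and the nrde-3 libraries, from 7.12 to 69.4, spanned the labelled double mutant. 

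The windows that set met-2 furthest apart from N2 mostly did not do so here. In the fit of all 18 libraries met-2 was higher than N2 in 15.4% of windows and lower in 23.0%, and the 3 largest changes of each direction are given. These are extremes and do not stand for all windows called in met-2. At I 7135001 the level was 1110 ± 42.6 in met-2 and 1.82 ± 0.909 in N2, and the labelled double mutant held 3.22, 1.01 and 2.10. The adjoining I 7136001 held 1093 to 1123 in met-2, 2.41 ± 0.682 in N2 and 5.90, 0 and 3.68 in the labelled double mutant. At I 7948001, with 51.8 ± 6.17 in met-2, the N2 libraries had no read and the labelled double mutant had 1 read, in replicate 3. At I 842001, where met-2 held 0.443 ± 0.531 and N2 79.1 ± 3.15, the labelled double mutant held 77.8, 78.3 and 69.2. At I 7894001 the level was 50.7 ± 5.19 in N2, 0.551 ± 0.248 in met-2 and 7.76 ± 1.88 in nrde-3, and 49.9, 64.5 and 46.6 in the labelled double mutant. At I 12559020, near 0.0993 in met-2 and 16.5 ± 3.15 in N2, it held 7.51, 8.40 and 8.94 (adjusted p = 0.115). At 5 of these 6 windows replicate 3 lay near N2, so this holds in replicate 3 as well as in replicates 1 and 2. Whether the labels, or the genotypes behind them, have a part in any result below was not tested.

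**Figure D2:**
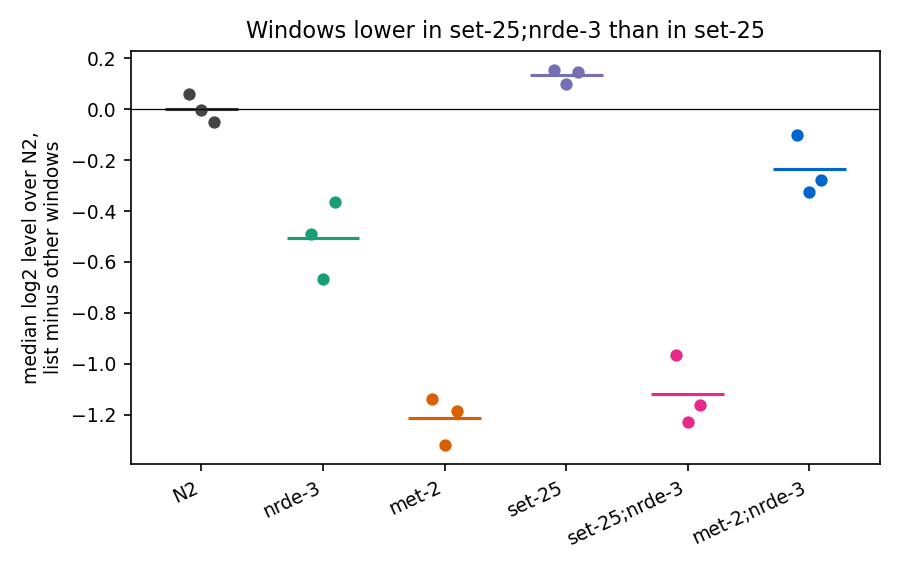
Median log2 level over N2 in the 141 listed windows, which the set-25;nrde-3 libraries held below set-25, minus the median over all other windows, for each library (points) with the group mean (line). The set-25 and set-25;nrde-3 libraries chose the list, and the labelled double mutant lies between N2 and nrde-3, at -0.10 to -0.32.

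Few windows were called as different between N2 and the labelled double mutant. Of 8911 windows tested by edgeR, 110 were higher (1.23%) and 94 lower (1.05%) in the labelled double mutant at an adjusted p of 0.05. An unadjusted edgeR p under 0.05 was reached by 1118 windows, so windows that were not called may also differ. At least 2-fold were 53 of the rises and 42 of the falls, and at least 4-fold were 11 and 8. The median log2 change was 0.97 among the rises and -0.96 among the falls, against -0.01 over all windows tested. The windows called held more reads than most. In the highest of 3 equal classes of N2 level, at 19.4 CPM or more, 75 windows rose and 86 fell (5.42% of 2971), while in the lowest class, up to 7.13 CPM, 16 rose and 2 fell (0.606% of 2970). The rises started from a median N2 level of 34.2 CPM and the falls from 112 CPM, beside 11.8 CPM over all windows tested. Within a window the strongest bin held a median of 19.5% of N2 reads in the rises, 21.2% in the falls and 21.4% in all windows tested.

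All 204 windows (2.29% of those tested) had the 3 labelled double mutant libraries on one side of the 3 N2 libraries, as did 20.9% of all windows tested. Replicate 3 alone lay outside the N2 range on the called side in each, and in 90 windows it was at least 2-fold from the N2 mean. Of all windows tested, 48.3% had replicate 3 outside that range on the side of their own fold change. Because replicate 3 took part in the calls, this describes them and is no second test. Replicate 3 alone against N2 called 192 of the 204 windows, with the lone library assumed to vary like those of N2, and replicates 1 and 2 without it called 151. No window changed direction in either fit, but the lack of overlap at these windows had fixed that in advance. The number of calls depended on the libraries. Without N2 replicate 1, 2 or 3 there were 28, 29 and 31 rises and 35, 33 and 37 falls, and without replicate 1 of the labelled double mutant 186 and 156.

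**Figure D3:**
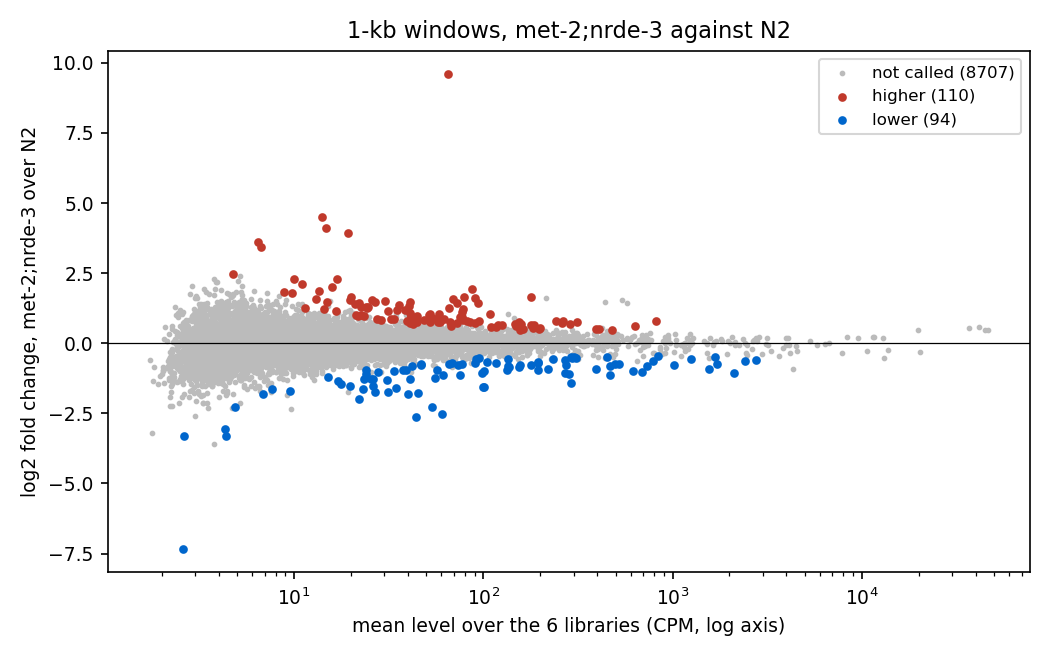
Log2 fold change of each 1-kb window, met-2;nrde-3 over N2, against its mean level over the 6 libraries (CPM, log axis). Red points are the 110 windows called higher, blue points the 94 called lower and grey points the rest; the highest point is I 14855020.

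The largest rise had almost no small RNA in any other group. At I 14855020 the N2 libraries held 0.257, 0.173 and 0 CPM, which is 2 reads in all, and the labelled double mutant held 96.5, 152 and 140, which is 1164 reads. All 3 labelled double mutant libraries, replicate 3 included, were high, and no other group mean exceeded 1.12 CPM. The ratio of summed levels was 982, with a 95% interval of 271 to 8119 that covers counting error only (edgeR adjusted p = 6.18e-07). Reads lay in 24 of the 50 bins, from base 14855400 to base 14855999, and the strongest bin held 20.4% of them, so the rise is a stretch and not a point. The adjoining I 14856020 rose too, from 1.29, 1.04 and 1.01 CPM in N2 to 15.6, 11.8 and 9.47 (log2 fold change 3.42 ± 0.46, adjusted p = 0.00291).

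Further large rises began from low levels in N2. At I 14679020 the N2 libraries held 1.29, 1.21 and 1.01 CPM and the labelled double mutant 30.0, 21.2 and 29.5. Its lowest library was far above the highest N2 library (log2 fold change 4.49 ± 0.33, edgeR adjusted p = 8.73e-05). The window before it, I 14678020, held 13.4, 14.8 and 7.63 in the labelled double mutant, with replicate 3 the lowest, and rose by 3.60 ± 0.52 (adjusted p = 0.00459). II 2269017 went from 1.80, 1.21 and 1.83 in N2 to 24.7, 31.9 and 26.6 in the labelled double mutant (4.10 ± 0.31, adjusted p = 8.73e-05). It ends a run of 3 rising windows from base 2267017 to base 2270016, whose summed level went from 27.9 to 103, and to 108 in replicate 3. I 11495020 went from 1.29, 3.64 and 1.83 in N2 to 40.8, 37.6 and 31.0 in the labelled double mutant (3.93 ± 0.33, adjusted p = 1.86e-04). At I 14679020, II 2269017 and I 11495020 replicate 3 lay far above every N2 library, as replicates 1 and 2 did.

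Among windows with more N2 reads, I 14130020 rose from 25.2, 42.1 and 39.3 CPM to 129, 163 and 124 (1.95 ± 0.19, edgeR adjusted p = 4.67e-04). At II 1663017 the level rose from 6.17, 5.90 and 4.87 to 30.0, 32.9 and 21.3 (2.30 ± 0.27, adjusted p = 0.00127). The other 4 rises named by rule were I 9927001, I 2028001, II 1142017 and I 9192001, with log2 fold changes of 2.28 ± 0.37, 2.01 ± 0.41, 1.86 ± 0.34 and 1.82 ± 0.40 (adjusted p = 0.00929, 0.0265, 0.0165 and 0.0397). None of these 4 passed the threshold when any single N2 library was left out. In the labelled double mutant their means were 16.6 ± 6.36, 25.6 ± 15.3, 21.2 ± 5.98 and 13.8 ± 5.45 CPM, and replicate 3 held 17.9, 19.7, 16.3 and 9.21 CPM, above the N2 means of 3.47, 6.10, 5.79 and 3.77. With replicate 3 alone against N2, I 9192001 no longer passed the threshold (adjusted p = 0.106).

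The largest falls among the named windows adjoined one another. At I 12506020 the N2 libraries held 60.4, 81.5 and 84.2 CPM and the labelled double mutant 14.5, 11.4 and 11.3 (-2.63 ± 0.20, edgeR adjusted p = 8.73e-05). The next window, I 12507020, went from 94.9, 103 and 106 to 34.9, 9.07 and 13.2 (-2.53 ± 0.34, adjusted p = 0.00321). Both had all labelled double mutant libraries below N2, as the naming rule required, with replicate 3 among the low ones. A run of 3 windows on I, from base 6820001 to base 6823000, fell from a summed level of 171 CPM to 42.1, and to 38.9 in replicate 3. Its middle window, I 6821001, held 95.4, 89.7 and 81.3 in N2 and 17.2, 15.1 and 22.1 in the labelled double mutant (-2.27 ± 0.17, adjusted p = 8.73e-05). The windows on either side, I 6820001 and I 6822001, changed by -1.75 ± 0.23 and -1.97 ± 0.27 (adjusted p = 0.0026 and 0.00291). All 3 windows of the run had no overlap between the groups, which the naming rule also required.

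On chromosome II, II 2004017 fell from 63.3, 72.7 and 74.2 CPM to 20.4, 18.1 and 22.1 (-1.79 ± 0.16, edgeR adjusted p = 1.98e-04). The labelled double mutant libraries lay within a narrow range there. II 1662017 went from 57.9, 64.9 and 66.7 in N2 to 9.12, 17.1 and 25.5 in the labelled double mutant (-1.80 ± 0.26, adjusted p = 0.00473), with replicate 3 the highest of the 3. The window before it, II 1661017, also fell, by 1.56 ± 0.14 on the log2 scale from 151 ± 6.27 CPM to 48.8, 44.0 and 60.5 (adjusted p = 1.98e-04). Yet II 1663017, directly after it, is the rise described above. It is one of 2 places where a called fall adjoined a called rise; at the other, I 220001 and the window after it changed by -0.81 and 0.71. The remaining named falls were I 8385001, I 9375001 and I 4495001, with changes of -1.72 ± 0.26, -1.69 ± 0.35 and -1.63 ± 0.28 (adjusted p = 0.00633, 0.0312 and 0.0124). Replicate 3 held 13.9, 3.68 and 16.6 CPM there, below the N2 means of 40.9, 14.4 and 35.4. I 9375001 and I 4495001 did not pass the threshold with any one of the N2 libraries left out, nor did I 8385001 without N2 replicate 2 or 3.

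One window outside the naming rule, picked after its values were seen, had no read in the labelled double mutant. I 5296001 held 75 reads over the N2 libraries, at 5.92, 5.72 and 3.85 CPM, and 0 in all 3 labelled double mutant libraries. It was at least 14.8-fold lower, taking 3 counts over the group as the floor (edgeR adjusted p = 0.0149). The level was 0.840 ± 0.0608 in met-2, 0.860 ± 0.481 in set-25, 0.815 ± 0.191 in set-25;nrde-3 and 3.23 ± 1.91 in nrde-3.

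**Figure D4:**
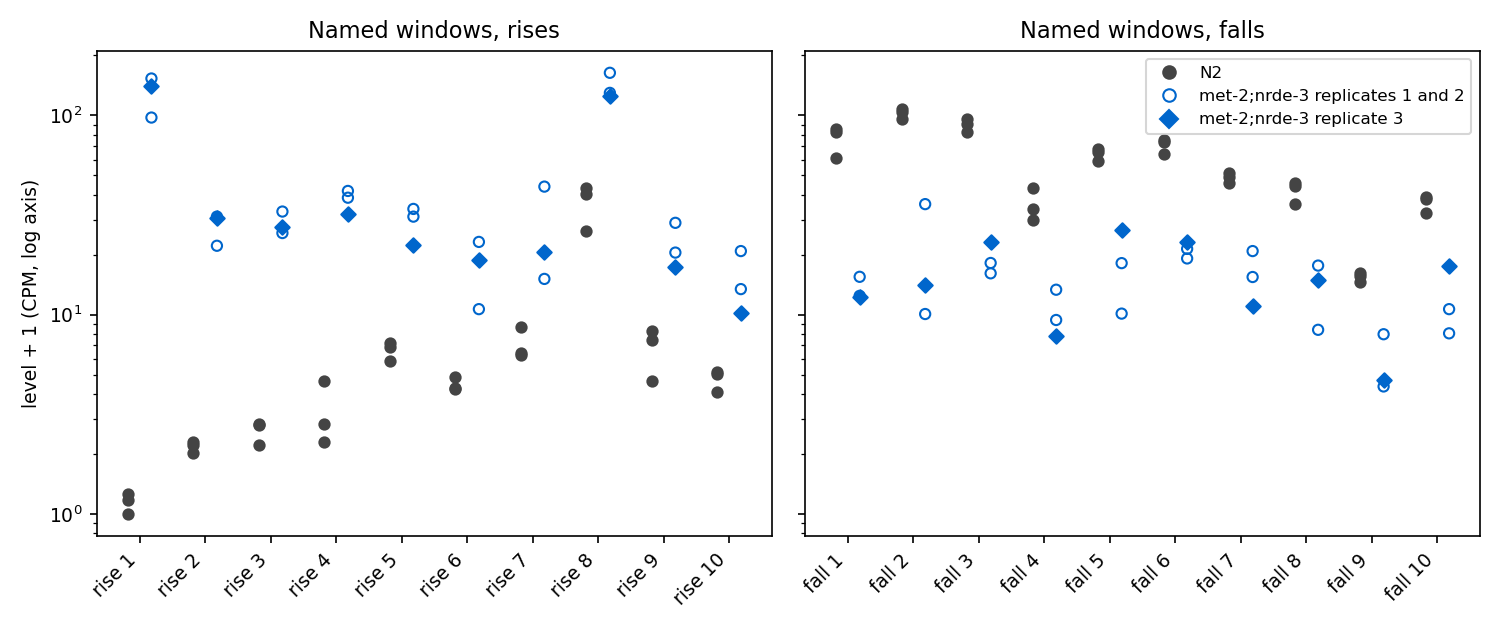
Level plus 1 (CPM, log axis) in each library for the 10 named rises (left) and the 10 named falls (right), ordered by size of change. Grey points are N2, open blue circles are met-2;nrde-3 replicates 1 and 2, and filled blue diamonds are replicate 3. The naming rule required replicate 3 to lie on the same side of N2 as the other blue points in each of the 20 windows.

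The windows called in the labelled double mutant were set beside their levels in the other mutants. These levels are all relative to the same N2 libraries, and the windows were chosen in the labelled double mutant, so they describe the windows and are no test of likeness. Over the 110 rises the median log2 level over N2 was 0.95 in the labelled double mutant, 0.86 in set-25;nrde-3, 0.65 in set-25, 0.18 in nrde-3 and -0.54 in met-2. Over the 94 falls it was -0.94 in the labelled double mutant, -1.08 in set-25;nrde-3, -1.13 in set-25, 0.12 in nrde-3 and -1.99 in met-2. Over all windows tested the median was 0.02 in met-2 and closer to 0 in the other 3 mutants.

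Direct tests of the labelled double mutant against each of the other mutants were made with all 18 libraries in one edgeR fit. That fit shares a spread over all groups, while the median SD was 0.47 in the labelled double mutant and 0.21 to 0.29 elsewhere. Its SE and p-values, here and below, may therefore be too small for this group. Against set-25, 30 of the 110 rises were higher still (background 1.85%), 4 were lower (1.44%) and 76 were not called, and of the 94 falls 10 were higher, 11 lower and 73 not called. Against nrde-3, 77 of the rises were higher (4.03%) and 1 was lower (4.14%), and of the falls 66 were lower and 19 higher. Most of the windows thus separated these groups in the same direction as from N2, but those 19 falls went the other way. Against set-25;nrde-3, 21 rises were higher (3.28%) and 15 lower (3.58%), and 24 falls were higher and 16 lower. Against met-2, 75 rises were higher (24.1%) and 17 lower (18.9%), and 51 falls were higher and 31 lower. Windows chosen for being high or low in the labelled double mutant lean toward calls of the same direction in these tests.

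Single named windows differed in their order of groups. At I 11495020 the level was 36.5 ± 4.96 CPM in the labelled double mutant and 25.8 ± 4.52 in set-25, a log2 difference of 0.49 ± 0.21 (edgeR adjusted p = 0.22), and 43.9 ± 4.87 in set-25;nrde-3 (-0.28 ± 0.20, adjusted p = 0.45). It was 2.62 ± 1.09 in nrde-3, beside 2.25 ± 1.23 in N2, and 20.6 ± 1.63 in met-2. At I 14679020 the level was 26.9 ± 4.96 in the labelled double mutant, 32.0 ± 1.65 in set-25;nrde-3, 16 ± 0.320 in set-25, 12.7 ± 0.954 in met-2 and 1.16 ± 0.617 in nrde-3. At II 2269017 it was 27.7 ± 3.76 in the labelled double mutant, 35.0 ± 3.93 in met-2, 24.4 ± 3.30 in set-25;nrde-3, 17.8 ± 0.970 in set-25 and 2.57 ± 0.602 in nrde-3. At these 3 rises the met-2 mean lay above that of N2, while at 6 of the 10 named rises it lay below, as at I 9927001 with 0.181 ± 0.157 in met-2 and 3.47 ± 0.340 in N2. At II 1663017 met-2 held 2.94 ± 1.23 and N2 5.65 ± 0.688.

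Of the falls, I 12506020 held 12.4 ± 1.80 CPM in the labelled double mutant, 8.80 ± 4.83 in set-25, 7.95 ± 2.54 in set-25;nrde-3 and 86.7 ± 9.02 in nrde-3. In met-2 it held 303 ± 28.0, so the labelled double mutant and met-2 lay on opposite sides of N2, with a log2 change of -4.64 ± 0.22 from met-2 to the labelled double mutant (edgeR adjusted p = 2.96e-16). The next window, I 12507020, held 262 ± 41.0 in met-2 and 12.7 ± 2.44 in set-25. At I 6821001 the level was 18.1 ± 3.59 in the labelled double mutant, 11.3 ± 0.448 in set-25, 15.8 ± 1.84 in set-25;nrde-3, 6.11 ± 0.936 in met-2 and 100.2 ± 17.2 in nrde-3. At II 2004017 it was 20.2 ± 1.98 in the labelled double mutant, 19.0 ± 3.65 in set-25 and 165 ± 23.5 in nrde-3, beside 70.1 ± 5.93 in N2. All 10 named falls were lower in the labelled double mutant than in nrde-3, and none was called against set-25;nrde-3. Against set-25, 1 of the 10 falls was lower, I 4495001 (-0.88 ± 0.25, adjusted p = 0.0498), and the other 9 were not called. Those 9 log2 differences ran from -0.18 ± 0.22 at II 1662017 to 1.00 ± 0.31 at I 8385001, so a missing call does not show that the groups have the same level.

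**Figure D5:**
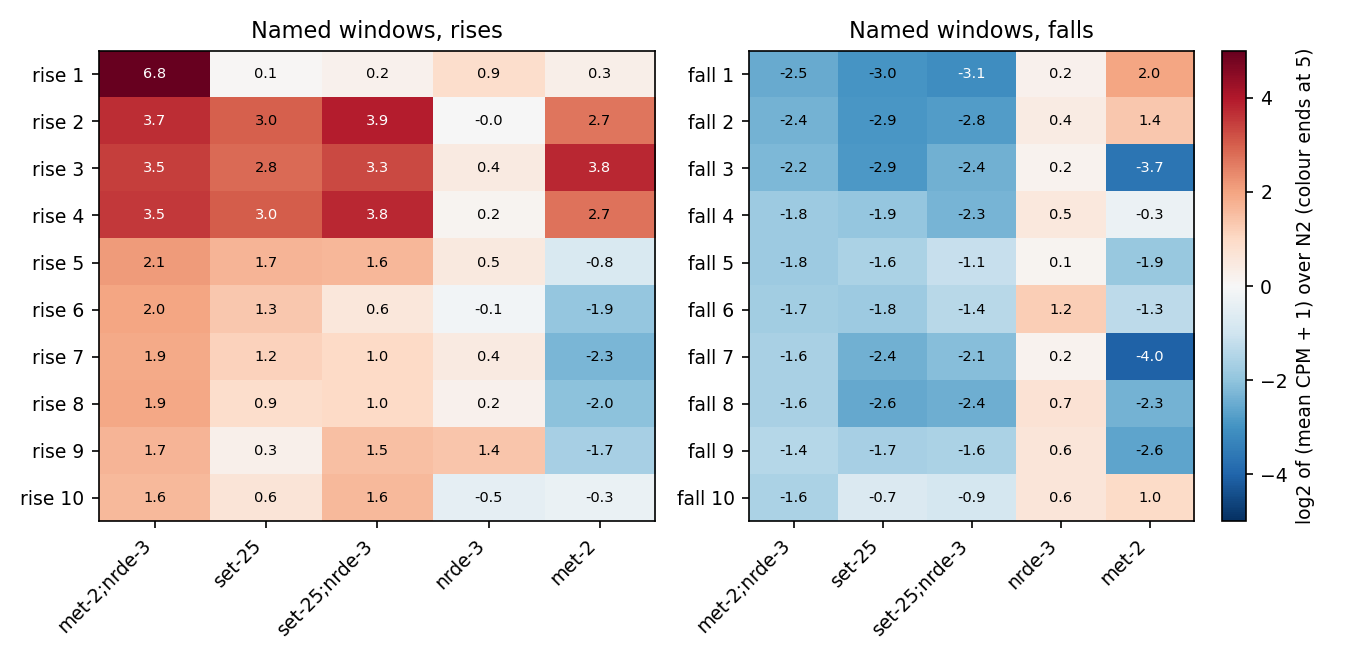
Log2 of the mean level plus 1 CPM over that of N2 in each mutant group, for the 10 named rises (left) and the 10 named falls (right); red is higher and blue lower than N2, and colour ends at 5. The met-2;nrde-3 column chose the windows. Rise 1, I 14855020, is high in that column alone, and fall 1, I 12506020, is low in the set-25 columns and high in met-2.

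A small set of windows separated the labelled double mutant from N2 and from all 4 other mutants. The tests share a spread over all groups, which may be too small for this group. In the fit of all 18 libraries, where 2.62% of windows were higher and 2.02% lower than in N2, 7 of 10730 windows were higher than in each of the 5 other groups and 9 were lower, and 5 of each were also called in the fit of 6 libraries. The other 2 higher windows, I 6212001 and I 9789001, rested on replicate 1, with 702, 180 and 92.9 CPM and with 323, 126 and 104 CPM in replicates 1, 2 and 3, beside N2 means of 103 ± 21.6 and 87.3 ± 13.4. The 5 windows of each direction called in both fits are described here. Besides I 14855020 and I 14856020 the higher of these were I 14130020, I 9539001 and II 1932017. I 14130020 held 138 ± 21.1 CPM, against 65.6 ± 12 in set-25, 71.4 ± 7.16 in set-25;nrde-3, 41.6 ± 4.06 in nrde-3 and 7.84 ± 2.51 in met-2. II 1932017 held 125, 142 and 142 in the labelled double mutant, 39.6, 41.8 and 52.5 in N2 and 61.7 ± 3.76 in nrde-3, the highest of the other groups. I 9539001 held 75.6, 77.3 and 70.0 in the labelled double mutant, and set-25 came next with 50.8 ± 4.37.

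The 5 lower windows called in both fits, listed because they met those conditions and not by the naming rule, were I 5452001, I 7280001, I 7657001, I 14248020 and II 1966017. I 5452001 held 186, 233 and 188 CPM in the labelled double mutant and 331, 353 and 349 in N2 (-0.76 ± 0.11, edgeR adjusted p = 0.00507), and set-25, the next lowest group, held 296 ± 28.1. I 14248020 held 33.3, 35.9 and 33.9, and no other group mean was below 49.3 ± 4.55. I 7280001 held 6.44, 8.06 and 13.9 and N2 held 26.0, 25.1 and 23.3, so replicate 3 was the least reduced. II 1966017 held 0.536, 0.336 and 1.58 against 7.46, 6.76 and 9.13 in N2 (-3.08 ± 0.60, adjusted p = 0.0226), with 3.59 ± 0.839 in set-25 and 21.1 ± 4.59 in nrde-3. I 7657001 held 28.4, 19.8 and 31.0, against 51.5 ± 6.75 in N2 and 127 ± 5.86 in met-2.

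Calls lay on both chromosomes, but unevenly. On chromosome I, 68 windows rose and 60 fell (1.91% of 6712 tested), and on the covered part of chromosome II 42 rose and 34 fell (3.46% of 2199). The shares were highest between 1 and 2 Mb of chromosome II, with 15 rises and 11 falls (5.95% of 437), and between 2 and 3 Mb, with 14 and 8 (5.90% of 373). The share called was larger at higher read levels, and level was not held equal between segments. Between 12 and 13 Mb of chromosome I all 16 calls were falls (4.30% of 372), most of them between base 12469020 and base 12593019. Between 3 and 4 Mb all 9 were rises (1.91% of 471), beside 1.91% called over chromosome I. Rises formed 79 runs of adjoining windows, 24 of them of 2 windows or more, and falls formed 69 runs, 17 of them of 2 or more. The longest runs had 4 windows. One fell from base 13408020 to base 13412019 of chromosome I, from a summed level of 5339 CPM to 3096, and to 2970 in replicate 3. Another fell from base 12569020 to base 12573019, from 995 to 443, and to 409 in replicate 3. The longest rise ran from base 11171020 to base 11175019, from 159 to 303, and to 317 in replicate 3. The run of 3 at the left tip of chromosome II, from base 310017 to base 313016, fell from 1161 to 587, and to 572 in replicate 3, and holds II 311017 from the check of the labels.

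Shares of reads in segments of 1 Mb depended on the right end of chromosome I, where the ribosomal RNA genes lie. Those last 13 kb took 22.8%, 25.5% and 32.8% of reads in N2 and 38.9%, 40.8% and 21.0% in the labelled double mutant (exact two-sided permutation p = 0.4). Replicates 1 and 2 were above all N2 libraries in 13 and 12 of its 13 windows, and replicate 3 was below all of them in 10. None of the 13 windows was called. With that end left out, the groups did not overlap in 12 of 22 segments (54.5%), 8 higher and 4 lower in the labelled double mutant. The largest fall was between 2 and 3 Mb of chromosome II, from 12.2%, 12.3% and 11.9% in N2 to 10.8%, 10.5% and 11.5%. Between 3 and 4 Mb it went from 9.44% ± 0.486 to 8.40% ± 0.373. The largest rise was between 14 and 15 Mb of chromosome I, from 4.59% ± 0.0492 to 5.05% ± 0.108. The typical window did not move with these shares. The median log2 change per window was 0.02 and 0.05 in the 2 segments of chromosome II and -0.02 in that of chromosome I. Abundant windows weigh most in a share, such as II 2997017, which fell from 2881 to 1364 CPM. Shares add to a fixed whole, so a loss in one segment raises the others. By exact two-sided permutation each of these segments reached p = 0.1, the lowest value 3 against 3 libraries can give, and an adjusted p of 0.183 over the 22 segments, so none passed the threshold.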

How the data were processed

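Small RNA from early embryos was treated with TAP, which makes capped and triphosphate ends ligatable, and sequenced as single-end reads of 50 bases. Per the labels and the series text, the authors removed adapters and merged identical reads (FASTX-Toolkit), then aligned them to ce10 (QuasR), versions not stated. The authors deposited counts, whole numbers of reads in bins of 20 bp; the scaling to total reads and the split by read length that the text names do not show in them. The protocol names a pair of biological replicates while each strain has 3 libraries, and p-values therefore reflect only differences between libraries, which may be technical.

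Windows of 1 kb were tested in edgeR 4.0.16 (R 4.3.3; glmQLFTest) on the 6 libraries, with filterByExpr at a minimum count of 10, TMM factors from all 18 libraries and a Benjamini-Hochberg adjusted p of 0.05. Levels are CPM on TMM library sizes, and SE is the log2 fold change over the square root of F. On simulated counts for 8911 windows, 50 windows were changed for each size and direction. Among them 72% of 2-fold rises, 52% of 2-fold falls, 100% of 4-fold rises and 98% of 4-fold falls were called. Of all calls there, 6.40% were unchanged windows. Whether these shares hold in windows with few reads, or where spread differs between the groups, was not tested.

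Named windows are the 10 largest rises and 10 largest falls among calls whose groups do not overlap, whose replicate 3 is at least 2-fold from N2 and whose higher group mean is above the median. For the check of the labels, the 3 largest rises and 3 largest falls of met-2 and the 3 largest falls of set-25;nrde-3 against set-25 were named. The comparison, the lists and the rules were chosen with earlier results of these data known. Alternatives were other scalings, filters, window grids and tools (DESeq2 1.42.0, limma 3.58.1), a replicate block, and libraries left out. Tables and plots used pandas 2.3.3, numpy 2.4.6 and matplotlib 3.10.9 under Python 3.11.15.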

Additional observations from a re-analysis of the deposited data

How the results depend on the processing

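None of the 204 called windows that an alternative tested changed direction in it, but the number of calls moved. With libraries left out no other direction was possible, since the groups did not overlap at any of the 204. With a minimum count of 100 only 162 of them were tested, and 200 with the strongest bin left out; windows shifted by 500 bp and 20-bp bins are other features, and directions were not matched to them. Higher and lower windows numbered 281 and 217 with 18 libraries in 1 fit, 185 and 145 with DESeq2, 214 and 155 with voom and sample quality weights, 202 and 159 with no filter, 177 and 186 with replicate 3 alone against N2, 29 and 32 with library totals as the scale, and 8 and 8 among 20-bp bins. With libraries left out in turn, higher windows ranged from 28 to 186 and lower ones from 33 to 156. The replicate block gave 72 higher and 69 lower windows. Same-numbered libraries did not deviate together over the windows (correlations of -0.0036, -0.0054 and -0.04). Counting noise in windows with few reads can hide a shared culture or day, so whether the numbers pair libraries was not settled. Of the 20 named windows, 13 kept their call in every setting that tested them and 7 lost it in some. The cause of these shifts was not tested. The right end's difference in share, 6.50 percentage points, ranged from 2.88 to 12.8 with libraries left out. Recovery of changes by read level was not simulated.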
